A study of Arabidopsis thaliana with 3 samples.

Results

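The genes described here are those encoded by the chloroplast genome, taken as every row whose identifier begins with ATCG: 88 of the 27416 rows measured. The plants were wild-type Arabidopsis thaliana of the accession Col-0, whole seedlings at 3 weeks of age from MS plates, kept at 16 h of light and 8 h of dark and 23 ± 2 °C. Their RNA was sequenced in 3 libraries, numbered replicates 4, 5 and 6, after removal of ribosomal RNA. The labels give total RNA and name no poly(A) selection, and the library kit keeps the strand of the RNA. The labels do not say whether the libraries came from separate plants, so the spread given is that between libraries. There is 1 group and no other genotype or treatment in the data, and the comparisons are between genes within these plants.

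The chloroplast genome is a remnant of a cyanobacterial one. It keeps genes for the core of the photosynthetic complexes, for the large subunit of Rubisco, and for a genetic system of its own with a bacterial-type RNA polymerase and part of a ribosome. The remaining subunits of the same complexes are made in the cytosol from nuclear genes and imported. Many chloroplast genes stand in rows on 1 strand and are transcribed together, then cut into shorter RNAs. In green leaves the mRNAs of photosynthesis genes such as psbA and rbcL are known as abundant, and mature chloroplast mRNAs as a rule carry no stable poly(A) tail.

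Of the 88 rows, 75 had reads and could be named, as 74 different genes. The other 13 rows were listed at 0 in every library. The reads behind each value were recovered as whole numbers, and the coding length that the values imply equalled the RefSeq coding length of the named gene in 68 rows and was a whole fraction of it in 4. For rps12, counted among the 68, the match is to its first exon alone, 114 of 372 coding bases. It differed for matK, ycf3 and ndhD. These 3 genes and rps12 were left out by name when the library totals were fitted, and rpl2 and ycf1 were also not used. The totals were fitted to the coding lengths of the other named rows. A match in those rows was therefore largely fixed once a total was found. They show only that a common total per library exists for them. In matK the values imply 1581 bases against 1515 annotated, and in ndhD 1521 against 1503. In ycf3 they imply 381 against 507, a difference of 126 bases that equals 1 of its 3 coding blocks. Pairs of genes of equal length, such as psbA and psbD at 1062 bases, cannot be told apart by this check and rest on the nomenclature alone.

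The 2 highest chloroplast genes were short, and their coding sequences are shown with those of the small photosystem II genes that the results below turn on, with start and stop codons in capitals. The sequences are from RefSeq, assembly TAIR10.1, given 5′ to 3′ on the coding strand. They are rpl32 (Pltd:113449-113607, plus strand), psaJ (Pltd:66929-67063, plus strand), psbM (Pltd:28707-28811, minus strand) and psbI (Pltd:7583-7693, plus strand), followed by psbJ (Pltd:63538-63660) and psbF (Pltd:63942-64061), near neighbours on the minus strand with contrasting levels.
rpl32: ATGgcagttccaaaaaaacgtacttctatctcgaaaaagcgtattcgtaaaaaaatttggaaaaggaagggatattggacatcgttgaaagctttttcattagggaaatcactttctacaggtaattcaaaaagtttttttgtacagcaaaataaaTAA
psaJ: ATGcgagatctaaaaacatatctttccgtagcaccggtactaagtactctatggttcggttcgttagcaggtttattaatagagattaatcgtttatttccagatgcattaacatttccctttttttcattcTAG
psbM: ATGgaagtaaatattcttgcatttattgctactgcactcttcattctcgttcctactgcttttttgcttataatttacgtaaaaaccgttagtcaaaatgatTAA
psbI: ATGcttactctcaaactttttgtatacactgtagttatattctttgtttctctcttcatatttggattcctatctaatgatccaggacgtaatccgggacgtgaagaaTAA
psbJ: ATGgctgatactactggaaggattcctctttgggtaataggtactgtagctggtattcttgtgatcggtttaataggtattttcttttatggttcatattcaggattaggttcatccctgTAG
psbF: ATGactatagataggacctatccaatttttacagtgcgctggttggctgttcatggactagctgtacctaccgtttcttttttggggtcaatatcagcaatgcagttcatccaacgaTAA
The G and C content of these 6 sequences ran from 30.5% in psbM to 41.7% in psbF.

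Chloroplast genes held a very small part of the measured RNA. They made up 0.0644%, 0.0716% and 0.0699% of summed FPKM in replicates 4, 5 and 6, a mean of 0.0686 ± 0.00375% (SD, n = 3). In reads, against library totals inferred from the values, this was 4581 of 19921241, 4814 of 19905762 and 4898 of 19892527. As percentages these were 0.0230% (95% Wilson interval 0.0223 to 0.0237%), 0.0242% (0.0235 to 0.0249%) and 0.0246% (0.0239 to 0.0253%). The intervals of replicates 4 and 6 do not overlap, and they cover counting error only. The 122 mitochondrial rows held 0.0475 ± 0.00122% of summed FPKM. The small chloroplast share stands in contrast to the abundance known for psbA and rbcL mRNAs in green leaves. It also stands in contrast to labels that name no poly(A) selection. The part of library preparation and counting in this share was not tested. In bulk RNA such as this, fewer cells of a type and less RNA per cell cannot be told apart. Both shoot markers were high, with RBCS1A at 10938 ± 89.8 FPKM and LHCB1.3 at 13523 FPKM. Of 5 root markers only the root patterning factor SHR (10.4 ± 0.369 FPKM) was detected. The auxin exporter PIN2 had 1.04 ± 0.223 FPKM, and WOX5, COBL9 and EXPA7 had 0.134, 0.0701 and 0.0162 FPKM.

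Detection was near that of nuclear genes. At 1 FPKM or more in every library there were 57 of 88 chloroplast rows (64.8%), against 63.0% of 27206 nuclear rows. At 10 FPKM or more there were 10 of 88 (11.4%), against 35.7% of nuclear rows. The median chloroplast row had 2.30 FPKM and the median nuclear row 4.71 FPKM, and 25 chloroplast rows lay above that nuclear median. The 10 highest rows held 58.5 to 61.1% of all chloroplast FPKM across the libraries.

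**Figure D1:**
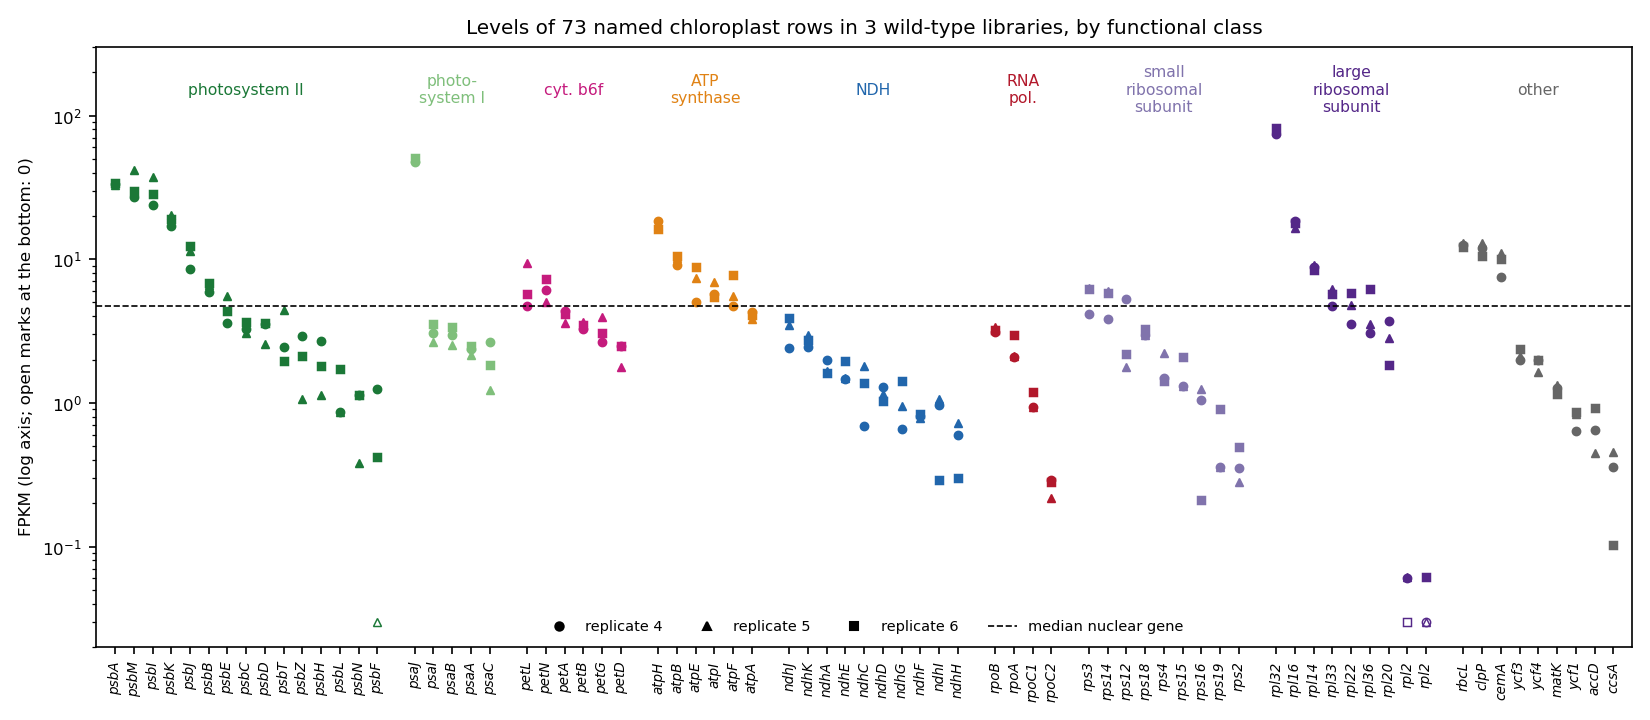
Each column is 1 of 73 of the named chloroplast rows, grouped by functional class and ordered by mean, with 1 mark per library (vertical axis: FPKM, log scale, zeros as open marks at the bottom). The dashed line is the median nuclear gene at 4.71 FPKM. rpl32, psaJ and psbA stand highest, all NDH and RNA polymerase genes lie under the line, and the 2 rpl2 rows lie near 0.

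The photosystem II genes spanned the widest range among the photosynthesis classes. psbA (ATCG00020, Pltd:383-1444, minus strand), which encodes the D1 reaction centre protein, had 33.4, 32.6 and 33.8 FPKM in replicates 4, 5 and 6. Its 2110 reads were the most of any chloroplast gene, its spread was the smallest among genes at 10 FPKM or more (a coefficient of variation of 1.85%), and 3787 nuclear rows (13.9%) had higher means. psbD, which encodes the partner protein D2, had 3.55, 2.55 and 3.60 FPKM, and psbA exceeded it 10.5 ± 1.93-fold (SD of the ratio, n = 3), in 3 of 3 libraries. psbC and psbB, for the core antenna proteins CP43 and CP47, had 3.34 ± 0.306 and 6.47 ± 0.497 FPKM.

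Among the small membrane subunits of photosystem II, psbM reached the level of psbA, and psbI exceeded it in replicate 5 only. psbM had 27.3, 42.1 and 29.7 FPKM and psbI had 24.0, 37.1 and 28.5 FPKM, both highest in replicate 5. psbM and psbA did not differ beyond their spread, with a log2 difference of -0.04 ± 0.35 that was positive in 1 library and negative in the other 2. psbK followed at 18.7 ± 1.64 FPKM and psbJ at 10.8 ± 1.94 FPKM. The lowest members were psbL (1.15 ± 0.497 FPKM, 8 reads over 3 libraries), psbN (0.888 ± 0.439 FPKM, 7 reads), whose product is an assembly factor, and psbF. psbF, for a subunit of cytochrome b559, had 1.25, 0 and 0.419 FPKM, which is 4 reads in all. With so few reads the order of these 3 genes was not detectable. psbE, for the other subunit of cytochrome b559, had a mean of 4.52 FPKM.

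In photosystem I, 1 small gene stood far above the rest. psaJ (ATCG00630) had 47.6, 50.2 and 50.6 FPKM, and the other 4 genes had means from 1.91 to 3.08 FPKM without overlap with it. The reaction centre genes psaA and psaB had 2.34 ± 0.169 and 2.95 ± 0.412 FPKM, and psaB exceeded psaA 1.26 ± 0.086-fold in 3 of 3 libraries. psaI, a small subunit, had 3.08 ± 0.442 FPKM on 21 reads. psaC, which holds the terminal iron-sulfur clusters, was lowest at 1.91 ± 0.716 FPKM on 28 reads.

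The cytochrome b6f and ATP synthase genes were the most even classes by the ratio of their highest to their lowest mean. All 12 had 1 FPKM or more in every library, against 63.0% of nuclear rows. In cytochrome b6f the small-subunit genes petL (6.63 ± 2.47 FPKM) and petN (6.14 ± 1.12 FPKM) were highest, on 38 and 33 reads. The large subunits followed, with petA for cytochrome f at 4.05 ± 0.404 FPKM, petB for cytochrome b6 at 3.46 ± 0.197 FPKM and petD for subunit IV lowest at 2.25 ± 0.42 FPKM. In the ATP synthase atpH, for the proton-carrying ring subunit, had 18.4, 17.2 and 16.1 FPKM and was above every other member in each library. atpB and atpA, for the beta and alpha subunits of the catalytic head, had 9.96 ± 0.743 and 4.05 ± 0.229 FPKM, a 2.47 ± 0.293-fold difference in 3 of 3 libraries.

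Like most chloroplast rows (63 of 88), all 10 named NDH genes had means below that of the median nuclear gene. This complex takes electrons from ferredoxin into cyclic electron flow and is known to be less abundant than the photosystems. Their means ran from ndhJ (3.27 ± 0.762 FPKM) and ndhK (2.72 ± 0.261 FPKM) down to ndhH (0.538 ± 0.218 FPKM), and 5 of the 10 had 1 FPKM or more in every library, against 63.0% of nuclear rows. The NDH median was 1.28 ± 0.141 FPKM, against 2.95 ± 0.412 FPKM for photosystem I. The log2(FPKM + 1) difference was -0.79 ± 0.16 and negative in each library. The photosystem II median (3.88 ± 0.479 FPKM) exceeded that of photosystem I by 0.31 ± 0.28 on the same scale, with values of 0.19, 0.62 and 0.10 in replicates 4, 5 and 6. This rested largely on replicate 5, without which the difference was 0.15, and with means over members in place of medians it was 0.083. No p-value is given for these or the following comparisons, because the smallest that sign flips over 3 libraries allow in an exact two-sided test is 0.25.

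Genes of the plastid genetic system held both the highest and the lowest named rows. rpl32 (ATCG01020), for a protein of the large ribosomal subunit, had 74.5, 78.4 and 81.3 FPKM, was highest of all chloroplast genes in each library and held 15.5 ± 0.514% of chloroplast FPKM. It exceeded psbA 2.35 ± 0.101-fold and psaJ 1.58 ± 0.024-fold, in 3 of 3 libraries each, and 1536 nuclear rows (5.65%) had higher means. rpl16 (17.6 ± 1.07 FPKM) and rpl14 (8.80 ± 0.339 FPKM) came next in the large subunit. In the small subunit rps3 (5.53 ± 1.22 FPKM) was highest and rps2 lowest (0.377 ± 0.108 FPKM). The 4 genes of the RNA polymerase core ran from rpoB (3.23 ± 0.126 FPKM) and rpoA (2.39 ± 0.486 FPKM) through rpoC1 (1.02 ± 0.143 FPKM) down to rpoC2 (0.263 ± 0.039 FPKM).

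By class, photosynthesis genes exceeded those of the genetic system. The median of 33 photosynthesis genes (both photosystems, cytochrome b6f, ATP synthase and rbcL) was 4.30 ± 0.129 FPKM, and that of 24 genetic system rows was 2.71 ± 0.267 FPKM. The log2 difference was 0.52 ± 0.12, positive in each library. The genetic system rows include both rpl2 rows, at 0.0203 and 0.0406 FPKM. With 1 of them left out the difference was 0.42, and leaving out both was not tested. The median of the RNA polymerase genes, 1.70 ± 0.314 FPKM, was below that of 20 ribosomal protein rows, 2.98 ± 0.291 FPKM. Here the log2 difference was -0.61 ± 0.25, negative in each library, and -0.71 with 1 of the rpl2 rows left out. The highest single gene nonetheless belonged to the genetic system.

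The genes of other functions, with rbcL included, ran from 0.305 to 12.6 FPKM. rbcL (ATCG00490, Pltd:54958-56397, plus strand), for the large subunit of Rubisco, had 12.6, 12.9 and 12.2 FPKM, and psbA exceeded it 2.64 ± 0.124-fold in 3 of 3 libraries. clpP, for a catalytic subunit of the Clp protease, had 11.8 ± 1.29 FPKM, and cemA, for an envelope protein, had 7.57, 11.1 and 10.1 FPKM. The photosystem I assembly factors ycf3 and ycf4 had 2.15 ± 0.203 and 1.87 ± 0.209 FPKM, and matK, for an intron splicing factor, had 1.25 ± 0.0966 FPKM. ycf1 (0.778 ± 0.123 FPKM), accD (0.674 ± 0.241 FPKM), for a subunit of the acetyl-CoA carboxylase of fatty acid synthesis, and ccsA (0.305 ± 0.183 FPKM), for a cytochrome c assembly factor, were lowest.

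Set against nucleus-encoded subunits of the same complexes, chloroplast genes were lower in every complex examined. The chloroplast-encoded genes of photosystem I had a median of 2.95 ± 0.412 FPKM and 12 nuclear ones 1292 ± 1.34 FPKM, a log2 difference of -8.36 ± 0.15. None of the 5 chloroplast genes reached the lowest nuclear one, PSAH-1 at 284 ± 10.3 FPKM, and the highest nuclear one was PSAL at 1643.5 FPKM. In photosystem II the medians were 3.88 ± 0.479 FPKM for 15 chloroplast genes and 1264 ± 25.8 FPKM for 11 nuclear ones, a log2 difference of -8.02 ± 0.15. The highest nuclear gene was PSBR (5482 ± 64.6 FPKM) and the lowest was PSBP-2 (6.11 ± 0.117 FPKM), which 6 chloroplast genes exceeded. Each of these differences, and those that follow, was negative in 3 of 3 libraries.

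The other photosynthetic complexes gave differences of similar kind. Chloroplast cytochrome b6f genes had a median of 3.82 ± 0.0144 FPKM, against 1143 ± 15.4 FPKM for PETC, the Rieske protein, and 1919 ± 19.6 FPKM for PETM. In the ATP synthase the medians were 6.95 ± 1.47 FPKM for 6 chloroplast genes and 668 ± 2.07 FPKM for 4 nuclear ones, and atpH and atpB exceeded the lowest nuclear gene, ATPC2 (7.19 ± 0.148 FPKM), but not the highest, PDE334 (805 FPKM). In NDH they were 1.28 ± 0.141 FPKM for 10 chloroplast genes and 128 ± 1.09 FPKM for 17 nuclear ones, a log2 difference of -5.82 ± 0.087. The highest of the chloroplast NDH genes, ndhJ at 3.27 FPKM, lay below the lowest of the nuclear ones, NDHT at 32.6 ± 1.06 FPKM, and NDHO was the highest at 223 FPKM. For Rubisco, rbcL had 12.6 ± 0.363 FPKM and the 4 RBCS genes of the small subunit summed to 24215 ± 214 FPKM, with RBCS1B the lowest at 2740 FPKM, a log2 difference of -10.80 ± 0.033.

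The gap was smallest for the RNA polymerase and for clpP. The 4 rpo genes had a median of 1.70 ± 0.314 FPKM and the 12 nuclear proteins that associate with this polymerase 26.2 ± 0.728 FPKM, a log2 difference of -3.38 ± 0.17. Their highest and lowest members were PTAC6 (160 ± 0.807 FPKM) and PTAC3 (19.99 ± 0.443 FPKM). clpP had 11.8 ± 1.29 FPKM and its 8 nuclear partners of the protease core a median of 124 FPKM, from CLPP6 (58.7 FPKM) to CLPP5 (215 FPKM), a log2 difference of -3.29 ± 0.13. The ribosomal proteins had medians of 2.98 ± 0.291 FPKM for 20 chloroplast rows and 290 ± 3.72 FPKM for 31 nuclear genes, a log2 difference of -6.20 ± 0.13. Even rpl32 was below the lowest nuclear one, PRPL10 at 170 ± 6.53 FPKM, and the highest was PRPL29 at 614 FPKM. accD had 0.674 ± 0.241 FPKM, against a median of 56.5 ± 1.69 FPKM for 4 nuclear subunits of its enzyme, which ran from BCCP2 (9.15 FPKM) to CAC2 (124 FPKM).

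**Figure D2:**
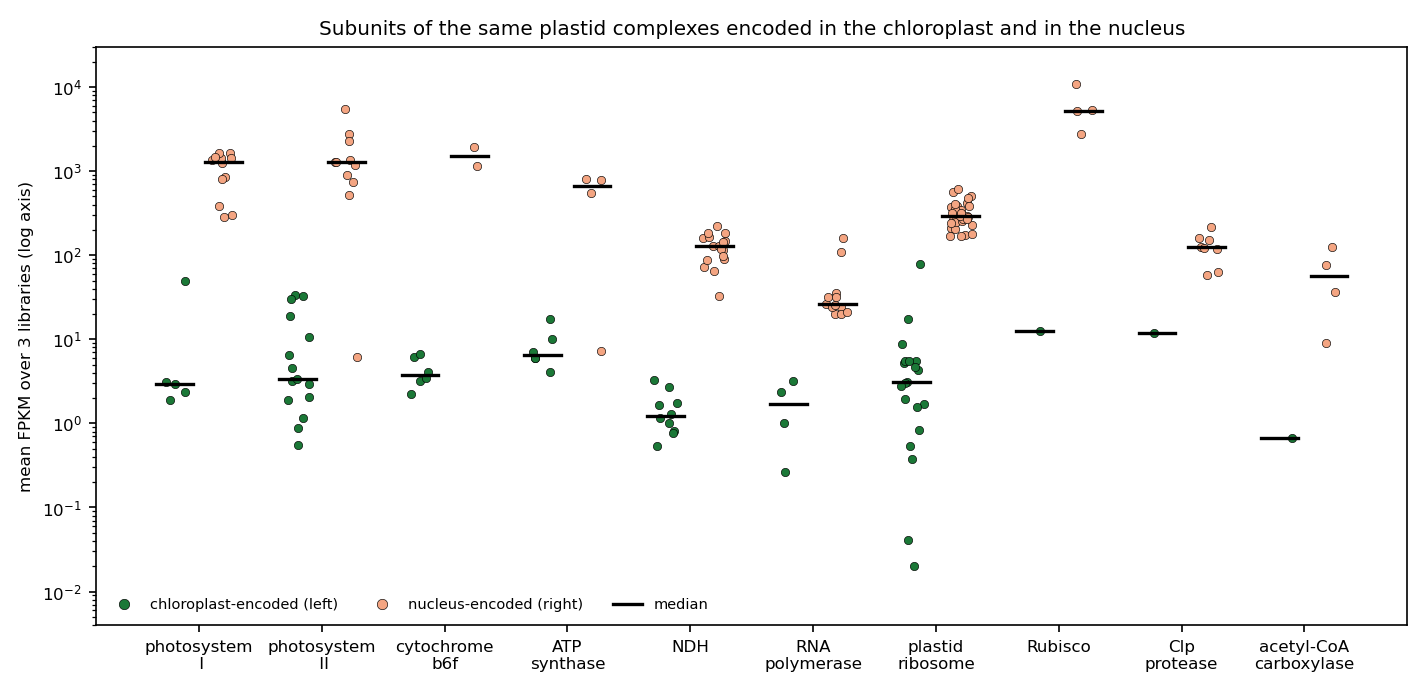
For 10 plastid complexes, each point is the mean FPKM of 1 gene over 3 libraries (log axis), with chloroplast-encoded genes on the left of each pair, nucleus-encoded ones on the right, and bars at the medians. The medians of photosystem I are 2.95 and 1292 FPKM, and the sets overlap only in photosystem II and the ATP synthase.

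Library preparation and counting were the same in all 3 libraries, so their part in this gap cannot be told apart from the level of the RNA in the plant.

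Levels differed between many neighbouring genes that are thought to be transcribed together. In 14 such groups, which hold 57 genes, the highest mean exceeded the lowest by 1.40 to 32.5-fold (median 3.89), and by over 3-fold in 9 groups. Such a ratio is above 1 by construction, and part of it is counting error where genes have few reads. In the groups as drawn, the 5′ gene did not stand apart as the higher one. The last gene was above the first in 3 of 3 libraries in 7 groups, and below it in 3 of 3 libraries in the other 7. The groups were drawn from general knowledge of chloroplast operons, and the RefSeq coordinates place each on 1 strand in the order given. Where a group starts is a choice that affects this split. For example, rps2 (0.377 FPKM) lies just 5′ of atpI on the same strand, and rpl2 lies just 5′ of rps19, but neither was included.

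In the RNA polymerase group the level fell along the row. rpoB had 3.10, 3.36 and 3.22 FPKM, rpoC1 had 0.934, 0.934 and 1.18 FPKM, and rpoC2 had 0.292, 0.219 and 0.280 FPKM, with no overlap between the 3 genes. rpoB exceeded rpoC1 3.21 ± 0.444-fold, and rpoC1 exceeded rpoC2 3.90 ± 0.603-fold. In the group of psaA, psaB and rps14, the last gene, for a ribosomal protein, had 5.20 ± 1.20 FPKM and exceeded psaA 2.23 ± 0.579-fold. psbD and psbC, whose coding regions overlap, did not differ beyond their spread (a log2 difference of -0.05 ± 0.14).

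psaJ stood far above both its neighbours. It exceeded petG, which precedes it, 15.7 ± 2.74-fold, and rpl33, which follows it, 8.96-fold, in 3 of 3 libraries each. In the group that opens with psbE, psbJ had 8.57, 11.4 and 12.3 FPKM, and psbF, of nearly the same length, had 4 reads in all. The sequences of both are printed above. In the group that opens with accD, cemA was highest at 9.56 ± 1.8 FPKM, its neighbour petA had 4.05 FPKM and accD was lowest at 0.674 FPKM. In the long row of ribosomal protein genes that ends with rpoA, rpl16 was highest at 17.6 FPKM and its neighbour rpl14 had 8.80 FPKM. The first gene of this row as drawn, rps19, was lowest at 0.54 ± 0.312 FPKM on 9 reads. psbN, which lies on the opposite strand between psbT and psbH, had 0.888 FPKM, against 2.95 ± 1.3 FPKM for psbT and 1.89 ± 0.794 FPKM for psbH, and whether the counting used strand is not given in the sources used here.

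The remaining members lay between these extremes. In the row that runs from ndhH to ndhD, psaC (2.65, 1.23 and 1.84 FPKM) had the highest mean only through replicate 4, and it was below ndhE in replicates 5 and 6. The others were ndhA (1.76 ± 0.201 FPKM), ndhE (1.64 ± 0.285 FPKM), ndhD (1.16 ± 0.131 FPKM), ndhG (0.662, 0.946 and 1.42 FPKM in replicates 4, 5 and 6) and ndhI (0.774 ± 0.422 FPKM). These NDH genes encode membrane and connecting subunits of the complex. ndhC opened its group at 1.29 ± 0.56 FPKM, below ndhK and ndhJ in 3 of 3 libraries. atpI, for a membrane subunit of the ATP synthase, had 6.05 ± 0.746 FPKM, and atpE, for the epsilon subunit, had 7.09 ± 1.92 FPKM, below atpB in 3 of 3 libraries. Among the ribosomal protein genes rpl33 had 5.58 ± 0.766 FPKM, rpl22 4.72 ± 1.15 FPKM, rpl36 4.26 ± 1.67 FPKM, rps18 3.06 ± 0.191 FPKM and rpl20 2.79 ± 0.921 FPKM. petG had 3.23 ± 0.674 FPKM and psbZ 2.04 ± 0.932 FPKM.

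**Figure D3:**
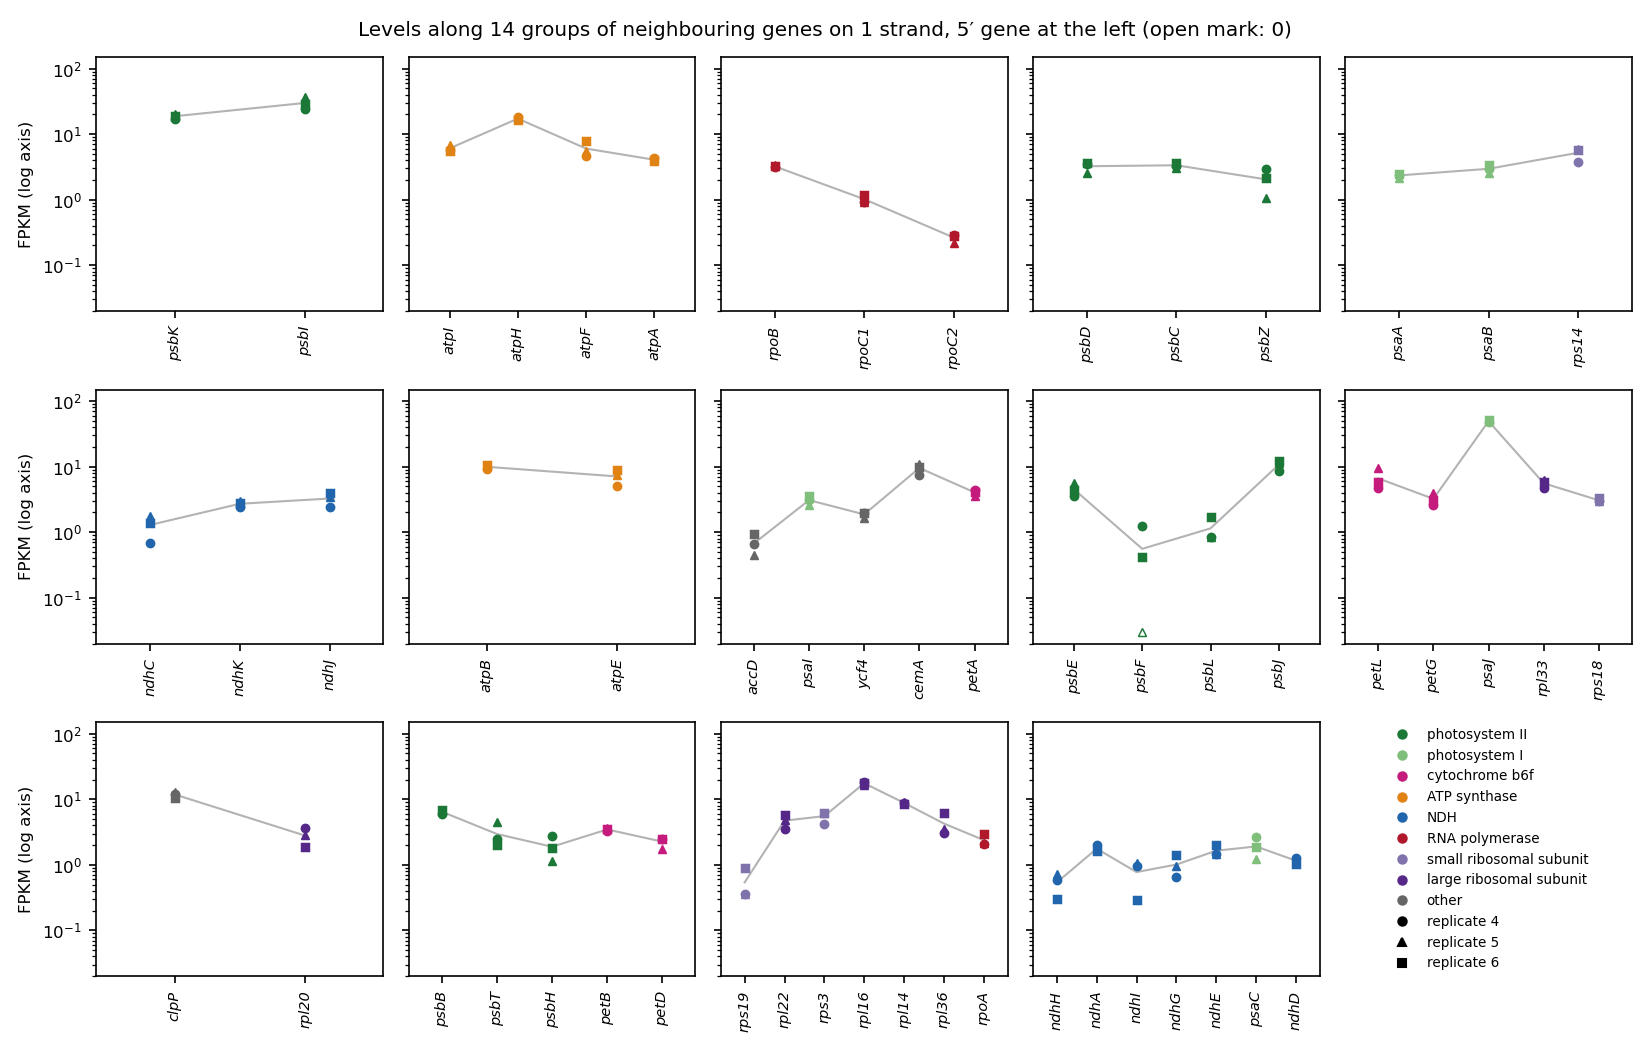
Each panel is 1 of 14 groups of neighbouring genes on the same strand, with genes from the 5′ to the 3′ end along the horizontal axis and FPKM on a log vertical axis. Marks are the 3 libraries, coloured by functional class, and the grey line joins the means of the genes shown. Levels step down from rpoB to rpoC2, peak at psaJ, and dip at psbF.

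The lowest named rows were both copies of rpl2, a gene with repeated sequence. The chloroplast genome holds a large inverted repeat, whose genes occur in both arms. RefSeq lists 9 protein-coding loci to which no named row belongs (both copies of rpl23, ycf2, ndhB and rps7, and the short copy of ycf1), and of their 50-base words 99.8% or more occur a second time in the chloroplast. The 13 rows at 0 are not paired with names in the sources used here, so whether they are these loci was not tested. The 2 rpl2 rows (ATCG00830 and ATCG01310), both with 100% repeated words, had 1 and 2 reads over the 3 libraries, and no other named row was wholly repeated. How the authors treated reads with several matches is not given in the sources used here, and its part in the rpl2 values was not tested. A count of 0 allows up to 3 reads per library, for counting error only.

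Few of the remaining genes shared many words with other places. Leaving out rpl2, 69 of 73 named genes had under 10% of their words elsewhere in the chloroplast, mitochondrial or nuclear sequence, with a median of 3.08 FPKM. The other 4 were rbcL (14.5%), rps2 (16.0%), ycf1 (18.5%) and rps19 (27.8%), with a median of 0.659 FPKM. Of these rbcL was among the 10 highest genes and the others were under 1 FPKM. The shared words of ycf1 and rps19 all recur within the chloroplast, and those of rps2 in the nuclear sequence. Across the 73 genes Spearman's rho of the mean level was -0.26 with coding length, -0.21 with the percentage of words elsewhere, 0.22 with the G and C content and -0.31 with the longest run of A in the coding sequence. These are descriptions across genes of the same 3 libraries, all weak. Genes under 300 bases had a median of 3.75 FPKM (24 genes, 0.54 to 78.0 FPKM), those of 300 bases to under 1 kb 3.07 FPKM (30 genes, 0.305 to 17.6 FPKM) and those of 1 kb or more 2.34 FPKM (19 genes, 0.263 to 33.3 FPKM).

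**Figure D4:**
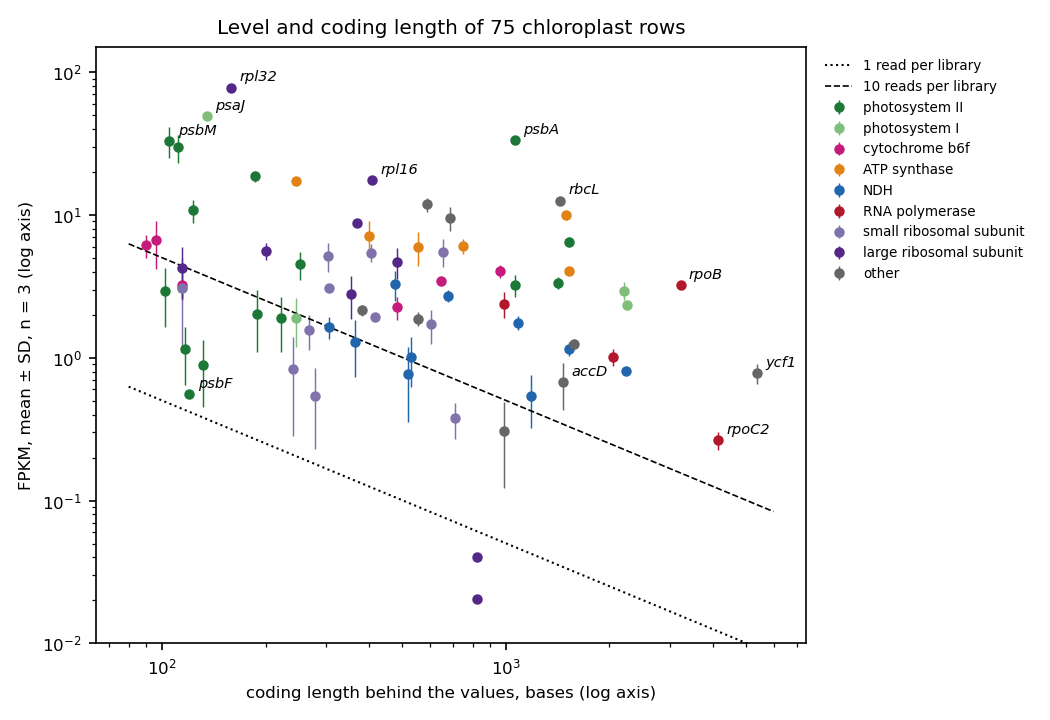
Each point is 1 of 75 named rows by coding length and FPKM (both log axes), with bars of ± 1 SD over 3 libraries, left out for psbF and both rpl2 rows, which have a library at 0. The dotted and dashed lines mark 1 and 10 reads per library. High genes include the short psaJ at 135 bases and the longer psbA at 1062. The longest genes, rpoC2 at 4131 bases and ycf1 at 5361, are low. Points near the dotted line rest on few reads.

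Few reads limited most members. Of the 75 rows with reads, 39 had under 100 reads over the 3 libraries and 50 had 10 or more in every library. The median SD of log2(FPKM + 1) over 61 chloroplast rows at a mean of 1 FPKM or more was 0.17, against 0.068 over 15953 nuclear rows between 1 FPKM and the highest chloroplast mean. These sets are not matched in level, with 11 chloroplast and 8541 nuclear rows at 10 to 80 FPKM. There the medians were 0.088 and 0.051. At 1 to 3 FPKM they were 0.19 and 0.13, and at 3 to 10 FPKM 0.21 and 0.087. In 38 rows with 90 reads or more the ratio of the variance of reads to their mean averaged 1.42, where counting alone gives an average of 1. The median of this ratio was 0.80, so the average was raised by the rows with the highest ratios. The ratio is skewed, and 1 is not the reference for its median. The ratio was highest in atpF (4.70, with 4.70, 5.52 and 7.79 FPKM), cemA (4.66), atpE (4.11), psbM (4.02) and rps3 (3.51). Among genes at 10 FPKM or more the SD of log2(FPKM + 1) was largest in psbM (0.32), psbI (0.31), psbJ (0.25), clpP (0.15) and psbK (0.12). Replicate 4 gave the lowest value in 36 of the 75 rows, replicate 5 in 22 and replicate 6 in 17. Part of this comes from shared read numbers. Where replicate 4 shared a lowest read number above 0, its value was slightly lower because its library total was the largest. Examples are rpoC1, with 38 reads in replicates 4 and 5, and rps18, with 18 in both. The rpl2 row ATCG00830, at 0 in replicates 4 and 5, was counted under replicate 4.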

How the data were processed

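Each library came as a deposited list with 1 number for every gene and a header that names no unit. FPKM calculated by the authors is assumed here, because the submitters' processing notes name Cufflinks 2.1.1, with TopHat2 2.0.9 and the build TAIR10; RPKM from whole reads is equally possible. Library totals were the smallest numbers, in the range searched, at which the chloroplast rows used give nearly whole reads at their coding length. matK, ndhD, ycf3, rps12, rpl2 and ycf1 were not used for this. Implied lengths were then found with these totals at a stricter tolerance, 0.0001 reads plus 1e-08 of the reads. Both steps were tested on simulated data. Identifiers were tied to symbols by hand after the TAIR nomenclature, since the reference does not pair them, and checked against RefSeq coding lengths. Class levels are medians within each library, and differences are on the log2(FPKM + 1) scale, with a mean and SD over 3 libraries and no count model. The library totals found were 19892527 to 19921241 reads. They were inferred from the values, so they need not be the sequencing depth. The genes named were the 10 highest and 5 lowest rows, the extremes of each class and partner list, and the members of the gene groups; some low rows are given by count, and 2 genes are not reported individually here. Members and lists were chosen with earlier results of these data known. Python 3.11.15, NumPy 2.4.6, pandas 2.3.3 and SciPy 1.17.1 were used.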

Additional observations from a re-analysis of the deposited data

How the results depend on the processing

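The class and complex differences kept their sign with another pseudocount, the mean over members and coding lengths of 300 bases or more. They also kept it with each library left out, which was fixed in advance because each had the same sign in all 3 libraries. For rbcL minus summed RBCS only the pseudocount and the libraries were varied. Leaving out 1 copy of rpl2 was run for the other differences except those of cytochrome b6f, ATP synthase, Clp protease and acetyl-CoA carboxylase, whose alternatives were chosen after seeing the data. With a pseudocount of 0.1 the differences were 0.66 for photosynthesis minus genetic system, -1.15 for NDH minus photosystem I, -0.89 for RNA polymerase minus ribosomal proteins, and, for chloroplast minus nuclear genes, -8.73 in photosystem I, -8.32 in photosystem II, -6.54 in NDH, -6.57 in the ribosome, -3.99 in the RNA polymerase, -8.57 in cytochrome b6f, -6.15 in acetyl-CoA carboxylase and -10.90 for rbcL minus summed RBCS. With the mean over members they were 0.76 (photosynthesis minus genetic system), -1.35 (NDH minus photosystem I), -7.24, -7.10, -5.63 (chloroplast minus nuclear photosystem I, photosystem II and NDH), -3.83 (RNA polymerase), -8.21 (cytochrome b6f), -4.76 (ATP synthase) and -4.72 (acetyl-CoA carboxylase). With coding lengths of 300 bases or more, photosystem II minus photosystem I was 0.66 and the chloroplast minus nuclear differences were -7.78 in photosystem II and -8.38 in cytochrome b6f. The chloroplast share was 0.0239% in reads, and 10 rows passed 10 FPKM. The other 81 recomputed values moved by less than the spread, or by less than 1.5 times where a count or a median SD was compared. Many of these could not have moved further, so they are no test of stability. Leaving out 1 of 3 libraries always moves a mean by less than the SD over the libraries. Leaving out 1 copy of rpl2 changed nothing in differences without ribosomal proteins. The limit of 300 bases removed no gene from the chloroplast minus nuclear differences of NDH, RNA polymerase, Clp protease and acetyl-CoA carboxylase. No paired analysis was possible because there is 1 group. Depth limits the short genes: 1 read in a coding length of 120 bases is over 0.4 FPKM.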
